A study of Homo sapiens with 24 samples.

Results

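Transcript levels of 9 core autophagy genes, SQSTM1, GABARAPL1, GABARAPL2, MAP1LC3B, WIPI1, ULK1, BECN1, ATG5 and ATG12, were followed in 4 cell lines of human acute myeloid leukemia (AML) treated with R406. The 9 genes were listed by name and make up 9 of the 12165 genes measured. Each gene was read from probe sets annotated to it alone, and where a gene had several, the one with the highest overall mean was used. R406 is a kinase inhibitor with activity against the tyrosine kinase SYK and other kinases. Cells of the lines MOLM-14, KG-1, HL-60 and U937 were given R406 at 4 µM, and each was set against the same line given the solvent DMSO. All were treated for 24 h in liquid culture, with 3 arrays in each of the 8 groups. The dose unit is µM in the treatment protocol but mM in the design text. MOLM-14 carries an MLL-AF9 fusion and a FLT3 internal tandem duplication and is of monocytic type, as is U937, while HL-60 is promyelocytic and KG-1 resembles early myeloblasts. Each is a single established line, so the comparisons describe these 4 lines and not AML at large. Whether the 3 arrays of a group came from separate cultures is not stated, and p-values therefore reflect only the spread between arrays, which may be technical.

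Macroautophagy encloses cytoplasm in a double membrane, the autophagosome, which fuses with lysosomes so that its content is broken down. The kinase ULK1 starts the process, the BECN1 complex makes the lipid phosphatidylinositol 3-phosphate on the growing membrane, and WIPI proteins bind that lipid. ATG12 is joined to ATG5, and this conjugate helps to attach proteins of the ATG8 family, among them MAP1LC3B, GABARAPL1 and GABARAPL2, to membrane lipid. SQSTM1, also called p62, ties ubiquitin-tagged cargo to these proteins and is degraded with it. Transcript levels measure none of these steps directly.

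The promoter sequences of the 4 members with the ATG8 and cargo receptor roles are shown because these 4 followed the other members most closely across the arrays. Each line holds the 150 bases before the transcription start, 5′ to 3′, from RefSeq on GRCh38.p14. For SQSTM1 the window is the last of its 3 in the table. Capitals mark matches, on either strand, to the motifs named after the sequences.
SQSTM1 (chr5:179820755-179820904, + strand): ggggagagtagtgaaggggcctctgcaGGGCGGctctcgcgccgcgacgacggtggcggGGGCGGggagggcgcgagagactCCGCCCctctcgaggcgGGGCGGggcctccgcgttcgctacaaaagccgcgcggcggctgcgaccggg
MAP1LC3B (chr16:87392186-87392335, + strand): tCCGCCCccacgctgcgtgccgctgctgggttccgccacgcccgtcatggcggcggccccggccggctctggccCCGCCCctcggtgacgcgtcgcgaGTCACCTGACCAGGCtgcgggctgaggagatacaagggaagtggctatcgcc
GABARAPL1 (chr12:10212727-10212876, + strand): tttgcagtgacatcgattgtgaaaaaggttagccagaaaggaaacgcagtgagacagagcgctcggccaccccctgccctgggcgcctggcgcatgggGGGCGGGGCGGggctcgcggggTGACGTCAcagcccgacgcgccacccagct
GABARAPL2 (chr16:75566229-75566378, + strand): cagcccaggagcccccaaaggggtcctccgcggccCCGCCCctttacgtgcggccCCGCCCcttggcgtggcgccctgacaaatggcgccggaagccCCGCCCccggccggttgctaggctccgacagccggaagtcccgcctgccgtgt

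All 9 genes had a promoter window in the RefSeq table, 12 windows of 300 bases in all, from 250 bases before the start to 50 after it. The GC box GGGCGG was found in 9 of the 12 windows, from 7 of the genes, and in 45% of all 35116 windows of this length. The cyclic AMP response element TGACGTCA was found once, 30 bases before the start of GABARAPL1, and in 1.85% of all windows. The antioxidant response element core TGACNNNGC was found once, as TGACCAGGC 46 bases before the start of MAP1LC3B, and in 13.3% of all windows. The E-box CACGTG was in none of the 12 windows and in 7.26% of all, and the forkhead motif GTAAACA was in none and in 3.42% of all. The CLEAR motif, GTCAC followed by its reverse complement and bound by TFEB and related factors, had no exact match in the 12 windows, against 0.353% of all windows. With 1 mismatch allowed it matched once, as GTCACCTGAC 52 bases before the start of MAP1LC3B (G6C, counted from the motif's first base), against 2.01% of all windows. This match overlaps that of the antioxidant response element core. The CLEAR motif contains the E-box, and it, the E-box and TGACGTCA read the same on both strands. A match is a description of letters and not of binding.

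Intensities in the deposited table lay between 3.405 and 12686, and the array medians between 19.14 and 21.36. Precision is limited by the number of arrays. KG-1 R406 replicate 2 stood furthest from the other arrays of its group, with a root mean square distance of 0.269 on the log2 scale. MOLM-14 R406 replicate 2 followed at 0.242. Without KG-1 R406 replicate 2 the counts of the 9 genes in KG-1 were again 7 higher and 1 lower, and those of the wider autophagy list 32 higher and 8 lower. The leukocyte marker PTPRC was present in all 4 lines, with group means of 444 to 1645. Of the 8 measured leukocyte and myeloid markers, 5 were called higher and 1 lower in MOLM-14, where most of the 9 genes rose. The shares of all genes there were 31.1% and 25%. In KG-1 3 were higher and 2 lower, against 23.5% and 20.9%. HL-60 had 3 higher and 0 lower, against 7.2% and 7.98%. U937 had 2 higher and 0 lower, against 6.1% and 5.43%. Summed intensities of these 8 markers in MOLM-14 were 3747 to 4298 in R406 and 2352 to 2446 in DMSO. There PTPRC was at 1645 in R406 and 639.5 in DMSO, and CSF1R at 74.14 in R406 and 17.08 in DMSO. In KG-1 the sums were 2975 to 3309 in R406 and 2526 to 2783 in DMSO. The part of these markers in the results was not tested. CD34 was high in KG-1, at 999.7 in R406 and 612.6 in DMSO, and read 14.82 to 18.09 in the other lines. CD14 read 853.3 in R406 and 279.4 in DMSO in HL-60 and 5.564 to 7.8 elsewhere, so this monocyte marker was near the lowest intensities in MOLM-14, U937 and KG-1. CD33 and LYZ were not analysed here. The log2 ratio of 3′ to 5′ ACTB control probe sets, a sign of RNA quality, was 0.824 in R406 against 0.484 in DMSO in MOLM-14, and 0.852 in R406 against 0.728 in DMSO in KG-1 (2-sided exact permutation p = 0.1 in each, the smallest that 3 against 3 arrays allow). It was 0.452 in R406 against 0.491 in DMSO in U937 (exact p = 0.6) and 0.745 in R406 against 0.874 in DMSO in HL-60 (exact p = 0.1). For GAPDH the ratio was -0.144 in R406 against -0.222 in DMSO in MOLM-14, and -0.065 against -0.166 in KG-1 (exact p = 0.1 in each). It was 0.115 in R406 against 0.126 in DMSO in HL-60 (exact p = 0.9) and -0.171 against -0.165 in U937. The part of RNA quality in the results was not tested.

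Most core autophagy transcripts rose with R406 in MOLM-14 and KG-1, 4 of the 9 rose in HL-60, and WIPI1 rose in U937. In MOLM-14, 8 of the 9 genes rose and ATG5 fell, where 31.1% of all genes were called higher and 25% lower. In KG-1, 7 rose, ATG5 fell and ULK1 was not called, against 23.5% called higher and 20.9% lower among all genes. In HL-60, SQSTM1, GABARAPL2, MAP1LC3B and WIPI1 rose and none of the 9 fell, against 7.2% and 7.98% of all genes. In U937 WIPI1 rose and none fell, against 6.1% and 5.43% of all genes. At an unadjusted p under 0.05 the numbers that fell in HL-60 and U937 were 0 as well. A call is an adjusted p under 0.05 in limma, with Benjamini-Hochberg adjustment over all 12165 genes. Fold changes are on the scale of log2(intensity + 1), R406 minus DMSO, which understates the changes of dim genes, and their SE rests on a variance that the 8 groups share.

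The median log2 fold change of the 9 genes was 0.89 in MOLM-14, 0.46 in KG-1, 0.20 in HL-60 and 0.11 in U937. The medians over all genes were 0.068, 0.02, -0.003 and 0.003 in the same order of lines. R406 and DMSO arrays were fully separate for 8 of the 9 genes in MOLM-14 and for 9 in KG-1, against 57.7% and 49.7% of all genes. They were separate for 4 genes in HL-60 and 4 in U937, against 32.8% and 34%. Averaged over the 4 lines with equal weight, 8 of the 9 rose and ATG5 fell, against 29.1% and 23.9% of all genes. Among the 9, WIPI1 was called higher in every line, as were 1.06% of all genes. The count in U937 is the least settled of these. It was 0 without U937 DMSO replicate 1 or 3 or without U937 R406 replicate 2 or 3, when WIPI1 lost its call, and 2 without KG-1 R406 replicate 1, 2 or 3, when SQSTM1 gained one. These are whole cultures, in which fewer cells of a kind and less RNA per cell cannot be told apart.

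**Figure D1:**
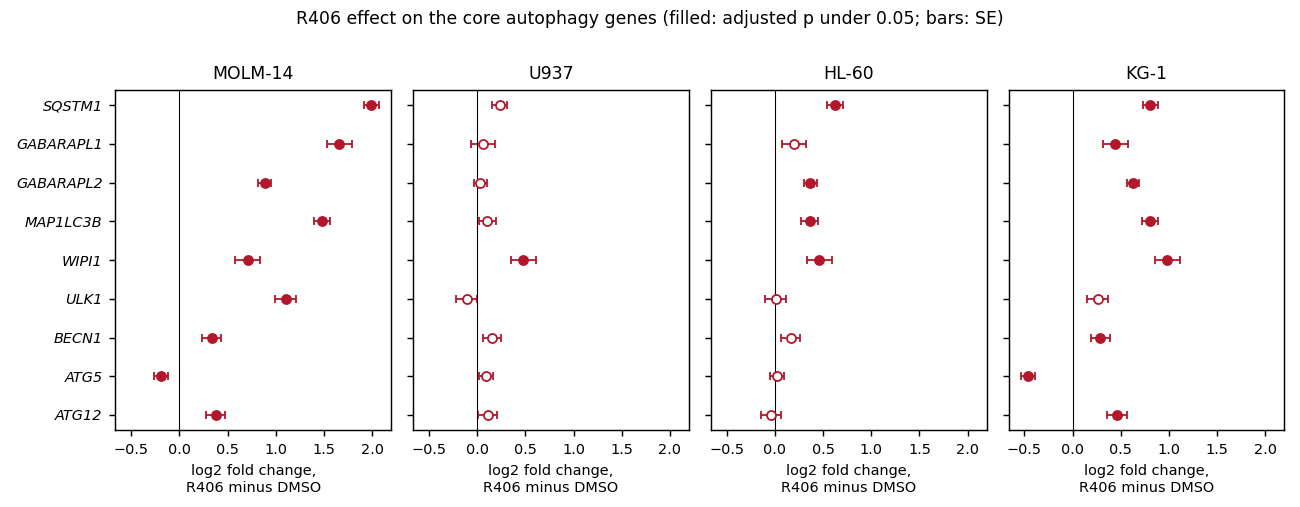
Log2 fold change of R406 over DMSO (x axis) for each of the 9 core autophagy genes in each line, with bars of 1 SE and filled points where the adjusted p was under 0.05. Among the brightest probe sets plotted, SQSTM1 has the largest change in MOLM-14, 1.99, and ATG5 lies below 0 in MOLM-14 and KG-1.

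SQSTM1, the cargo receptor, showed the largest rise of the 9 genes with each gene read from its brightest probe set. With probe sets averaged, GABARAPL1 had the largest, 1.93 in MOLM-14. The SQSTM1 intensity of the brightest probe set was 1190, 1153 and 1116 in the R406 arrays of MOLM-14, against 277.9, 295.4 and 296.3 in the DMSO arrays. The groups stood far apart, with a log2 fold change of 1.99 ± 0.078, or 3.97-fold (adjusted p = 1.13e-15, limma). In KG-1 the R406 arrays read 567.8, 759.7 and 590.2, against 352.8, 371.4 and 362.8 in DMSO. All 3 R406 arrays were higher, replicate 2 most of all, and the change was 0.81 ± 0.078 (adjusted p = 9.99e-09, limma), or 0.68 without that replicate. HL-60 gave 821.1, 821.8 and 826.1 in R406, against 521.2, 527.9 and 552.1 in DMSO. This was a change of 0.62 ± 0.078 (adjusted p = 4.92e-06, limma). U937 gave 579.3, 572.7 and 591.7 in R406, against 500.7, 504.2 and 478 in DMSO. The U937 groups did not overlap, but the change of 0.23 ± 0.078 was not called (adjusted p = 0.0554, limma). It was called without any 1 of the 3 KG-1 R406 arrays, with an adjusted p of 0.00307 without replicate 2, 0.0347 without replicate 1 and 0.0494 without replicate 3 (limma).

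The other 3 SQSTM1 probe sets were dimmer and did not all follow it. Probe set 213112_s_at averaged 29.08 ± 9.83 in R406 and 17.36 ± 3.28 in DMSO in MOLM-14 (SD, n = 3 each). It rose there by 0.68 ± 0.16 and in HL-60 by 0.77 ± 0.16, and in KG-1 its change was 0.009 ± 0.16. Probe sets 217252_at and 217255_at had group means of 5.563 to 7.219, near the lowest intensities of the arrays, and were called in no line. With the 4 probe sets averaged, the SQSTM1 change was 0.63 in MOLM-14, 0.34 in HL-60, 0.22 in KG-1 and 0.09 in U937, called in MOLM-14, KG-1 and HL-60.

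Each of the 3 ATG8 family members rose in MOLM-14 and KG-1. MAP1LC3B, known as LC3B and the usual protein marker of autophagosomes, read 434.8, 364.8 and 418.9 in MOLM-14 R406, against 133.3, 146 and 154.6 in DMSO. The lowest R406 array was above the highest DMSO array by a wide margin, and the change was 1.48 ± 0.085 (adjusted p = 7.78e-13, limma). KG-1 had 592.5, 716.3 and 593.9 in R406, against 351.5, 380.2 and 353.9 in DMSO. That change of 0.80 ± 0.085 was called, and it was 0.71 without R406 replicate 2. HL-60 had 223.5, 207.7 and 210.7 in R406, against 179.6, 166.2 and 154.4 in DMSO, a rise of 0.36 ± 0.085 (adjusted p = 0.00475, limma). U937 had 268.6, 258.6 and 277.5 in R406, against 237.9, 265 and 244.5 in DMSO. These groups overlapped and the change of 0.11 ± 0.085 was not called. A second probe set, 208785_s_at, rose in all 4 lines, by 0.92 ± 0.066 in MOLM-14, 0.48 ± 0.066 in KG-1, 0.36 ± 0.066 in HL-60 and 0.24 ± 0.066 in U937 (adjusted p = 0.0206, limma over all single-symbol probe sets). Its U937 arrays averaged 231.8 ± 10.6 in R406 and 195.8 ± 3.98 in DMSO (SD, n = 3 each), so U937 is the line in which the 2 probe sets gave different calls.

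GABARAPL1, an ATG8 homologue of the GABARAP branch, was dim in every line. It read 57.64, 42.54 and 39.49 in MOLM-14 R406, against 13.96, 13.11 and 14.5 in DMSO. Every R406 array was well above every DMSO array, and the change was 1.66 ± 0.13 (adjusted p = 7.96e-11, limma), or 1.06 with 16 added to the intensities in place of 1. KG-1 read 17.57, 16.49 and 17.9 in R406, against 11.3, 11.87 and 14.35 in DMSO, a rise of 0.45 ± 0.13, or 0.23 with 16 added and 0.48 without R406 replicate 2. HL-60 read 21.91, 19.91 and 23.51 in R406, against 16.26, 18.08 and 22.75 in DMSO, and U937 read 9.883, 11.56 and 11.3 in R406, against 10.68, 9.318 and 11.36 in DMSO. Both pairs of groups overlapped, and neither change was called (0.20 ± 0.13 in HL-60 and 0.06 ± 0.13 in U937). Probe set 208869_s_at followed the same order of lines, with 2.19 ± 0.17 in MOLM-14, 0.67 ± 0.17 in KG-1, 0.49 ± 0.17 in HL-60 and 0.22 ± 0.17 in U937, called in MOLM-14 and KG-1. A further probe set, annotated to both GABARAPL3 and GABARAPL1, was left out by the rule on single symbols. It averaged 171.8 ± 8.06 in R406 and 26.07 ± 0.913 in DMSO in MOLM-14 (SD, n = 3 each), and its signal cannot be assigned to either gene.

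GABARAPL2, the third family member and also known as GATE-16, had 1 probe set. It read 1788, 1600 and 1669 in MOLM-14 R406, against 892.1, 908.5 and 930.9 in DMSO. The groups were far apart, with a rise of 0.89 ± 0.066 (adjusted p = 7.01e-11, limma). KG-1 read 1153, 1316 and 1292 in R406, against 803.2, 832.6 and 796.9 in DMSO, a rise of 0.63 ± 0.066, or 0.59 without R406 replicate 2. HL-60 read 1107, 1090 and 1052 in R406, against 806.4, 911.9 and 804.2 in DMSO, a rise of 0.37 ± 0.066. In U937 the arrays read 704.2, 759.1 and 701.2 in R406, against 705.5, 707.7 and 698.2 in DMSO. They overlapped, and the change was 0.04 ± 0.066.

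**Figure D2:**
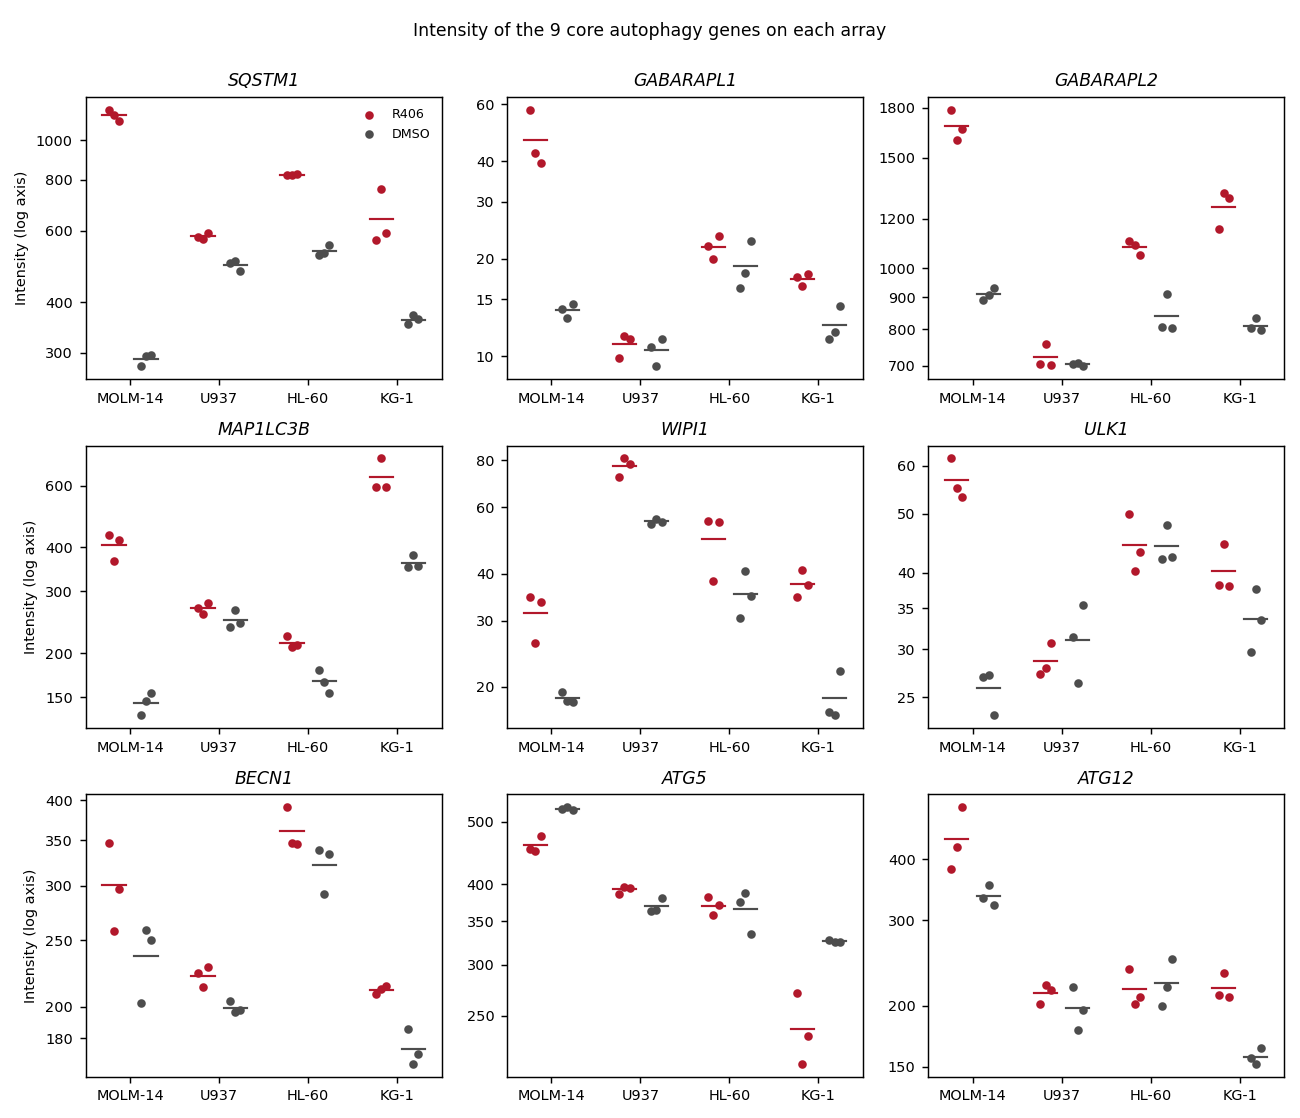
Intensity of each core autophagy gene on each of the 24 arrays (y axis, log scale, a separate range for each gene), with R406 in red to the left of DMSO in grey for each line. Points are arrays and the horizontal lines are group means of 3 arrays, for example 1153 in R406 and 289.9 in DMSO for SQSTM1 in MOLM-14.

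WIPI1, which binds phosphatidylinositol 3-phosphate on the forming membrane, rose in each of the 4 lines. It read 34.63, 26.17 and 33.58 in MOLM-14 R406, against 19.45, 18.39 and 18.29 in DMSO, and 34.7, 40.84 and 37.26 in KG-1 R406, against 17.12, 16.83 and 22.01 in DMSO. Neither pair of groups overlapped, with changes of 0.98 ± 0.13 in KG-1, or 0.92 without R406 replicate 2, and 0.71 ± 0.13 in MOLM-14. U937 read 72.35, 80.91 and 78.2 in R406, against 54.25, 56.03 and 54.86 in DMSO, a change of 0.48 ± 0.13 (adjusted p = 0.0178, limma). HL-60 read 55.07, 38.3 and 54.76 in R406, against 30.5, 40.56 and 34.92 in DMSO, a change of 0.46 ± 0.13 (adjusted p = 0.0169, limma). In HL-60 the lowest R406 array was under the highest DMSO array, and leaving out R406 replicate 1 (0.38), R406 replicate 3 (0.38) or DMSO replicate 1 (0.36) ended the call. The U937 call was lost without U937 DMSO replicate 1 (0.47) or 3 (0.48) or without U937 R406 replicate 2 (0.44) or 3 (0.47). The difference of the WIPI1 effect between lines was not called (adjusted p = 0.0586, limma F test). It was called without MOLM-14 R406 replicate 2, HL-60 DMSO replicate 1, HL-60 R406 replicate 1 or 3, or KG-1 DMSO replicate 3 (adjusted p = 0.0181 for the last). The dimmer probe set 213836_s_at rose in MOLM-14 by 0.98 ± 0.21 and in KG-1 by 0.81 ± 0.21 and was not called in U937 (0.46 ± 0.21) or HL-60 (0.40 ± 0.21).

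ULK1, the kinase at the start of the pathway, rose in MOLM-14. It read 61.66, 55.22 and 53.39 in R406, against 26.98, 27.22 and 23.37 in DMSO. The groups were clearly separate, with a change of 1.11 ± 0.11 (adjusted p = 6.81e-09, limma). KG-1 read 38.19, 44.69 and 38.14 in R406, against 29.68, 37.66 and 33.48 in DMSO, and the change of 0.26 ± 0.11 was not called (adjusted p = 0.057, limma). It was called without KG-1 DMSO replicate 2, at 0.34, and, with the change itself at 0.26, without U937 DMSO replicate 2 or 3 or HL-60 R406 replicate 1. Without KG-1 R406 replicate 2 it was 0.19 and not called. U937 read 27.31, 27.92 and 30.7 in R406, against 31.37, 26.41 and 35.45 in DMSO. HL-60 read 49.98, 40.31 and 43.33 in R406, against 42.24, 47.9 and 42.54 in DMSO. Both groups of arrays overlapped in these lines, and the changes were -0.11 ± 0.11 in U937 and 0.007 ± 0.11 in HL-60.

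BECN1, the scaffold of the complex that makes phosphatidylinositol 3-phosphate, had small changes. It read 346.4, 258.2 and 296.9 in MOLM-14 R406, against 202.8, 259.2 and 250.6 in DMSO. The groups overlapped by a small margin, and the change of 0.34 ± 0.097 was called (adjusted p = 0.00503, limma). That call was lost without MOLM-14 DMSO replicate 1 (0.23) or R406 replicate 1 (0.23). KG-1 read 208.5, 212.6 and 214.6 in R406, against 185.7, 165.1 and 170.5 in DMSO, a rise of 0.29 ± 0.097 (adjusted p = 0.0186, limma), lost without KG-1 DMSO replicate 2 (0.25) or replicate 3 (0.27). Without R406 replicate 2 it was 0.28 and still called. In U937, at 0.15 ± 0.097, and HL-60, at 0.17 ± 0.097, BECN1 was not called. Its second probe set, 208945_s_at, was called in no line and differed in sign, with -0.14 ± 0.075 in MOLM-14 and -0.16 ± 0.075 in KG-1. When both probe sets were averaged, the BECN1 change in MOLM-14 was 0.10, that in KG-1 was 0.06, and neither was called.

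ATG12 and ATG5, the partners of the conjugation system, moved in opposite directions in KG-1. ATG12 read 210.9, 233.4 and 208.4 in KG-1 R406, against 156.5, 152.1 and 164 in DMSO, and ATG5 read 271.3, 210.5 and 232.5 in R406, against 328.1, 325.1 and 325.5 in DMSO. Neither gene's groups overlapped, and ATG12 rose by 0.46 ± 0.10 (adjusted p = 0.000523, limma). ATG5 fell by 0.46 ± 0.073 in KG-1 (adjusted p = 1.35e-05, limma). Without KG-1 R406 replicate 2 the changes were 0.41 for ATG12 and -0.38 for ATG5. In MOLM-14, ATG12 read 381.6, 424.5 and 511.2 in R406, against 332.9, 353.3 and 321.5 in DMSO, a rise of 0.38 ± 0.10. ATG5 read 453.4, 450.3 and 474.5 in MOLM-14 R406, against 522.4, 526.2 and 521.4 in DMSO. All 3 R406 arrays were lower, by 0.19 ± 0.073 on the log2 scale (adjusted p = 0.033, limma). The ATG5 call in MOLM-14 was lost without MOLM-14 DMSO replicate 1 (-0.19), 2 (-0.18) or 3 (-0.19), or without R406 replicate 1 (-0.18) or 2 (-0.17). Neither gene was called in U937 (ATG12 0.11 ± 0.10, ATG5 0.09 ± 0.073) or HL-60 (ATG12 -0.04 ± 0.10, ATG5 0.02 ± 0.073).

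The probe sets of ATG5 and ATG12 disagreed. For ATG5 in MOLM-14, 202512_s_at averaged 98.1 ± 5.08 in R406 and 64.53 ± 1.64 in DMSO (SD, n = 3 each), a rise of 0.60 ± 0.13. In the same arrays 210639_s_at averaged 87.93 ± 12.4 in R406 and 143.2 ± 5.46 in DMSO, a change of -0.71 ± 0.085. In KG-1 210639_s_at changed by -0.63 ± 0.085, and 202512_s_at, at 0.13 ± 0.13, was not called. A single direction for ATG5 in MOLM-14 is therefore not shown by these arrays, while in KG-1 the called probe sets were lower. For ATG12, 213930_at rose by 1.00 ± 0.080 in MOLM-14 and 0.69 ± 0.080 in KG-1, and 204833_at was called in neither (-0.19 ± 0.096 and -0.13 ± 0.096). The deposited values do not show which transcripts each probe set binds.

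**Figure D3:**
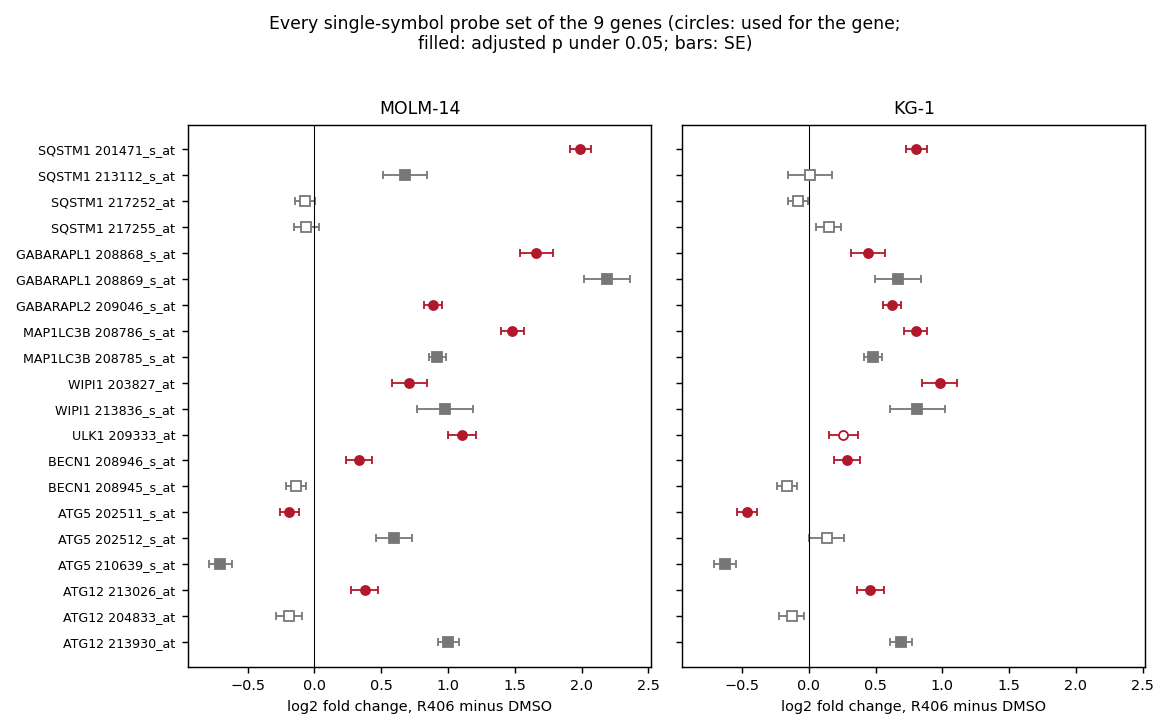
Log2 fold change of R406 over DMSO (x axis, bars of 1 SE) for each of the 20 single-symbol probe sets of the core autophagy genes in MOLM-14 and KG-1. Red circles stand for the gene, grey squares are its other probe sets, and filled symbols had an adjusted p under 0.05; the 3 ATG5 probe sets run from -0.71 to 0.60 in MOLM-14.

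The effect of R406 differed between the 4 lines for 7 of the 9 genes by the F test, where 54.8% of all genes were called. WIPI1 and BECN1 (adjusted p = 0.564, limma) were not among them. The effect in MOLM-14 exceeded the mean effect of the other 3 lines for SQSTM1, by 1.43 ± 0.090, GABARAPL1, by 1.43 ± 0.14, MAP1LC3B, by 1.06 ± 0.098, ULK1, by 1.05 ± 0.13, and GABARAPL2, by 0.54 ± 0.076. These are 5 of 9 genes, against 23.6% of all genes. For WIPI1 the same difference was 0.07 ± 0.15, for BECN1 0.13 ± 0.11, for ATG12 0.20 ± 0.12 and for ATG5 -0.07 ± 0.084, and none of these was called. The ATG12 difference was called without MOLM-14 R406 replicate 1, at 0.30, and with averaged probe sets, at 0.28 (adjusted p = 0.00517, limma).

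Levels in DMSO differed between the lines for all 9 genes (limma F test), as they did for 68.1% of all genes. Order is given from the highest group mean to the lowest, and neighbours are said to differ where their pairwise adjusted p was under 0.05. Such pairwise calls were made for 47% of all genes between MOLM-14 and U937, 46% between MOLM-14 and HL-60, and 51.2% between MOLM-14 and KG-1. The shares were 48.2% between U937 and HL-60, 50.9% between U937 and KG-1, and 48.6% between HL-60 and KG-1. SQSTM1 averaged 533.7 ± 16.3 in HL-60, 494.3 ± 14.2 in U937, 362.3 ± 9.31 in KG-1 and 289.9 ± 10.4 in MOLM-14 (SD, n = 3 each). The difference between HL-60 and U937 was not called (adjusted p = 0.272, limma), though their DMSO arrays did not overlap. The other neighbours differed. With SQSTM1 read from its brightest probe set, MOLM-14 had the lowest level in DMSO and the highest in R406 by group mean.

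MAP1LC3B averaged 361.9 ± 15.9 in KG-1, 249.1 ± 14.1 in U937, 166.8 ± 12.6 in HL-60 and 144.7 ± 10.7 in MOLM-14 (SD, n = 3 each). Here the difference between HL-60 and MOLM-14 was not called (adjusted p = 0.0553, limma). It was called without replicate 3 of either DMSO group (-0.25 and -0.26, MOLM-14 minus HL-60) or without R406 replicate 2 of MOLM-14 or KG-1. The second MAP1LC3B probe set, 208785_s_at, gave the other order of these lines in DMSO, with 149.5 ± 3.34 in MOLM-14 and 115.7 ± 2.22 in HL-60. GABARAPL1 averaged 19.03 ± 3.35 in HL-60, 13.86 ± 0.700 in MOLM-14, 12.51 ± 1.62 in KG-1 and 10.45 ± 1.04 in U937, and of the neighbours only HL-60 and MOLM-14 differed. That difference was lost without HL-60 DMSO replicate 3, and the one between MOLM-14 and U937 (0.38) without MOLM-14 DMSO replicate 3 or U937 DMSO replicate 2. GABARAPL2 spanned the narrowest range, 1.29-fold, with 910.5 ± 19.5 in MOLM-14, 840.8 ± 61.6 in HL-60, 810.9 ± 19.0 in KG-1 and 703.8 ± 4.96 in U937, and KG-1 differed from U937. MOLM-14 and KG-1 differed by 0.17 in GABARAPL2 (adjusted p = 0.039, limma), lost without any 1 MOLM-14 DMSO replicate or KG-1 DMSO replicate 1 or 3. Without HL-60 DMSO replicate 2, MOLM-14 and HL-60 differed as well.

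WIPI1 spanned the widest range, 2.87-fold. It averaged 55.05 ± 0.905 in U937, 35.33 ± 5.04 in HL-60, 18.71 ± 0.642 in MOLM-14 and 18.65 ± 2.91 in KG-1. The last pair was not called different (adjusted p = 0.945, limma). For ULK1 the DMSO means were 44.23 ± 3.19 in HL-60, 33.61 ± 3.99 in KG-1, 31.08 ± 4.53 in U937 and 25.86 ± 2.16 in MOLM-14, with HL-60 above its neighbour and the other neighbours not separated. KG-1 and MOLM-14, which are not neighbours in this order, did differ in ULK1 (adjusted p = 0.00693, limma), though not without KG-1 DMSO replicate 2. Without U937 DMSO replicate 2, U937 and MOLM-14 differed. BECN1 averaged 321.8 ± 25.7 in HL-60, 237.5 ± 30.4 in MOLM-14, 199.5 ± 4.12 in U937 and 173.8 ± 10.7 in KG-1. The last pair was not called different, though its DMSO arrays did not overlap. The step between MOLM-14 and U937 was barely past the threshold (adjusted p = 0.044, limma) and was lost without MOLM-14 DMSO replicate 2 (0.18) or 3 (0.20), any U937 DMSO replicate, U937 R406 replicate 1 or 3, or KG-1 DMSO replicate 3.

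ATG5 averaged 523.4 ± 2.54 in MOLM-14, 369.4 ± 9.16 in U937, 365.6 ± 27.7 in HL-60 and 326.3 ± 1.66 in KG-1 (SD, n = 3 each). MOLM-14 was above its neighbour. The other neighbours were not called different, though the DMSO arrays of HL-60 and KG-1 did not overlap. U937 and KG-1 differed in ATG5 by 0.18 on the log2 scale (adjusted p = 0.0465, limma), a call that was lost when any 1 of 18 of the 24 arrays was left out. HL-60 and KG-1 differed without HL-60 DMSO replicate 3 or KG-1 R406 replicate 1 or 2. ATG12 averaged 335.9 ± 16.1 in MOLM-14, 223.2 ± 25.2 in HL-60, 197.7 ± 20.1 in U937 and 157.5 ± 5.99 in KG-1. HL-60 and U937 were not called different (adjusted p = 0.174, limma). The step between U937 and KG-1 was lost without U937 DMSO replicate 1. Read from their brightest probe sets, both conjugation partners were highest in MOLM-14 and lowest in KG-1 in DMSO by group mean. Of their other probe sets, only ATG5 202512_s_at gave both ends, with 64.53 in MOLM-14 and 37.18 in KG-1. ATG12 213930_at was highest in U937 (17.74, against 15.78 in MOLM-14). ATG12 204833_at (33.68, against 42 in KG-1) and ATG5 210639_s_at (85.52, against 90.06 in KG-1) were lowest in HL-60.

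A wider list of 75 autophagy genes that leaves out the 9 moved mostly upward in MOLM-14 and KG-1. Of its 61 measured genes, 41 rose and 6 fell in MOLM-14, 32 rose and 9 fell in KG-1, 10 rose and 5 fell in HL-60, and 12 rose and 4 fell in U937, to be read against the shares of all genes above. The medians were 0.36, 0.26, 0.07 and 0.12 in that order of lines. The other 14 genes of the list were not analysed here. The U937 counts moved with single arrays, and the genes that rose numbered 7 without U937 DMSO replicate 1 or 3. Those that fell in U937 numbered 1 without DMSO replicate 1 or 2 or R406 replicate 3, and 2 without R406 replicate 1 or 2. In HL-60, 3 genes fell without DMSO replicate 2 or without R406 replicate 2.

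Among all genes, 31.1% were called higher and 25% lower in MOLM-14, 23.5% and 20.9% in KG-1, 7.2% and 7.98% in HL-60, and 6.1% and 5.43% in U937. By role, all 7 measured genes of membrane supply and lipid transfer rose in MOLM-14 and 6 rose in KG-1. WDR45, a relative of WIPI1, rose by 1.36 ± 0.083 in KG-1 and 0.50 ± 0.083 in HL-60. Of 10 genes for fusion with lysosomes, 9 rose in MOLM-14, 6 in KG-1, 2 in HL-60 and 4 in U937. VAMP8, a membrane fusion protein on lysosomes, was the 1 that fell in HL-60, by 0.27 ± 0.052. Of 6 conjugation genes, 1 rose and 3 fell in KG-1, and 0 were called in MOLM-14, HL-60 or U937 (limma). At an unadjusted p under 0.05, 1 was higher in U937 and 0 differed in MOLM-14 or HL-60. Among these genes ATG10, with group means of 8.989 to 11.75, and ATG16L1, with 13.22 to 20.33, were dim in every line. Of 4 initiation genes, 2 rose and 2 fell in MOLM-14, and 2 rose and 1 fell in KG-1. ATG101, a subunit of the ULK1 complex, averaged 99.92 ± 13.8 in R406 and 169.8 ± 12.9 in DMSO in MOLM-14 (-0.77 ± 0.10) and also fell in KG-1 (-0.88 ± 0.10). Of 7 genes of the BECN1 and PI3K complexes, 5 rose and 1 fell in MOLM-14, and 2 rose and 1 fell in KG-1, where PIK3R4, the regulatory subunit of the lipid kinase, changed by -0.54 ± 0.084.

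GABARAP, the namesake of the branch that holds GABARAPL1 and GABARAPL2, averaged 2137 ± 54.4 in R406 and 622.8 ± 31.2 in DMSO in MOLM-14, a rise of 1.78 ± 0.068 (adjusted p = 7.47e-16, limma). GABARAP also rose in KG-1 (1.16 ± 0.068) and U937 (0.31 ± 0.068), and was not called in HL-60 (0.18 ± 0.068). Its effect differed between the lines (adjusted p = 5.61e-12, limma F test). Of the 9 measured cargo receptors beside SQSTM1, 6 rose and 1 fell in MOLM-14, 5 rose and 1 fell in KG-1, 2 rose and 2 fell in HL-60, and 3 rose and 1 fell in U937. Among all genes the shares higher and lower were 31.1% and 25% in MOLM-14, 23.5% and 20.9% in KG-1, 7.2% and 7.98% in HL-60, and 6.1% and 5.43% in U937. NBR1, a receptor built like SQSTM1, rose in all 4 lines and averaged 101.5 ± 6.49 in R406 and 71.54 ± 1.85 in DMSO in U937 (0.50 ± 0.067). CALCOCO2, a receptor for bacteria and mitochondria, averaged 850.4 ± 110.3 in R406 and 292.1 ± 14.7 in DMSO in KG-1, a rise of 1.53 ± 0.077, and its effect differed between the lines (adjusted p = 7.15e-11, limma F test). OPTN, another receptor for ubiquitin-tagged cargo, rose by 0.92 ± 0.18 in U937 and by 0.505 ± 0.175 in MOLM-14. WDFY3, which links aggregates to the autophagy machinery, rose by 0.64 ± 0.16 in HL-60.

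The related mitochondrial receptors BNIP3 and BNIP3L went opposite ways in MOLM-14, KG-1 and U937. In MOLM-14, BNIP3L averaged 1514 ± 37.4 in R406 and 410.6 ± 23.9 in DMSO, a rise of 1.88 ± 0.096 (adjusted p = 1.01e-13, limma). BNIP3 averaged 246.1 ± 18.2 in R406 and 799.1 ± 87.5 in DMSO in MOLM-14, a change of -1.69 ± 0.11 (adjusted p = 8.05e-12, limma). BNIP3 was the 1 gene of the list that fell in all 4 lines, by 0.76 ± 0.11 in KG-1, 0.38 ± 0.11 in HL-60 and 0.38 ± 0.11 in U937, as 1.79% of all genes did. BNIP3L also rose in KG-1, by 0.72 ± 0.096, and in U937, by 0.48 ± 0.096, and was not called in HL-60 (0.04 ± 0.096).

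**Figure D4:**
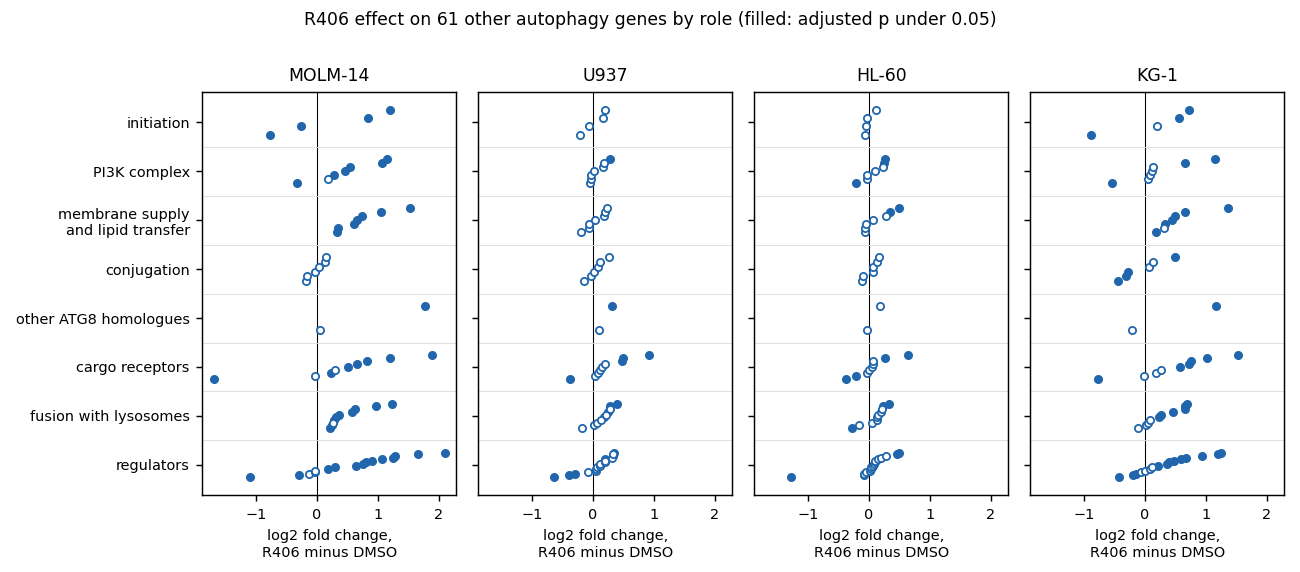
Log2 fold change of R406 over DMSO (x axis) for each of 61 other autophagy genes, grouped by role (rows) in each line, with filled points where the adjusted p was under 0.05. All 7 genes of membrane supply and lipid transfer lie above 0 and are filled in MOLM-14. No conjugation gene is filled there, and ATG10 and ATG16L1 among these were dim.

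Across the 24 arrays, after each gene was centred on its mean in each line, MAP1LC3B and SQSTM1 followed the mean of the other members most closely, with Pearson r of 0.957 and 0.956. GABARAPL2 (0.934), GABARAPL1 (0.904), ULK1 (0.838), WIPI1 (0.803), BECN1 (0.747) and ATG12 (0.686) came next, and ATG5 ran against them at -0.664. Each gene was read here from its brightest probe set. Of the other ATG5 probe sets, 202512_s_at rose in MOLM-14 (0.60 ± 0.13) and 210639_s_at fell (-0.71 ± 0.085). The closest pair was SQSTM1 and MAP1LC3B, at 0.979. The non-members most like the mean of the 9 genes were RIN3 (r = 0.974), USP9X (0.973), PAN2 (0.968), MTMR3 (0.966) and SAT1 (0.966). RIN3, for example, changed by 1.87 in MOLM-14, 1.04 in KG-1, 0.36 in HL-60 and 0.35 in U937. These values describe 24 arrays that share the same treatments and normalization, and no test was made of them.

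Summed intensities of the 5 T and NK cell markers were highest in U937, at 955 to 1012 in R406 and 829.7 to 856.7 in DMSO, and 145.4 to 162.4 in R406 and 172.5 to 183.1 in DMSO in HL-60. They were 306.3 to 340.2 in R406 and 175.2 to 195.9 in DMSO arrays of MOLM-14, and 523.4 to 655.8 in R406 and 316.2 to 319.8 in DMSO arrays of KG-1. These sums were mostly NKG7, at 281.3 in R406 and 146 in DMSO in MOLM-14 and 948 in R406 and 811.2 in DMSO in U937, while the T cell marker CD3E had group means of 5.969 to 10.98 over the 8 groups, near the lowest intensities. Of the 5 T and NK cell markers, 1 was called higher in MOLM-14 and 2 in KG-1, against 31.1% and 23.5% of all genes. In HL-60 1 was called lower, against 7.98%. Summed intensities of the 8 fibroblast and epithelial markers were 145.1 to 191.3 in R406 and 78.64 to 83.47 in DMSO arrays of KG-1, with COL3A1 at 86.28 in R406 and 8.511 in DMSO and COL1A2 at 8.141 in R406 and 7.256 in DMSO. In MOLM-14 these sums were 222.5 to 235.8 in R406 and 250.6 to 263.3 in DMSO, mostly KRT18. The 6 measured erythroid markers summed to 81.08 to 124.9 and the 3 B cell markers to 25.07 to 37.51 over all arrays. The 5 megakaryocyte markers summed to 64.64 to 73.55 in R406 and 92.51 to 124.3 in DMSO arrays of KG-1, and to 45.36 to 62.72 elsewhere. The part of these markers in the autophagy results was not tested.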

How the data were processed

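RNA of 24 cell line samples in 8 groups was hybridised to 1-colour Affymetrix high-throughput human arrays. The deposited values are probe set intensities made by the authors with RMA, per the submitters' processing notes, which name no version. Their range and medians place them on a linear scale. The genome build is not given in the sources used here, and detection calls and scan dates were not used here. Controls (62 probe sets), probe sets of several symbols (568) and those of none (1923) were left out of the 22277, which leaves 19724 for 12165 genes. Symbols of the array annotation were brought up to date through gene identifiers. For a gene with several probe sets, the one with the highest mean over all arrays was used, and all were also tested one by one.

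Samples were grouped by the labelled line and treatment. One linear model of log2(intensity + 1) with a mean for each group was fitted (limma 3.58.1, R 4.3.3; 16 residual and 5.47 prior degrees of freedom). Contrasts were R406 minus DMSO per line and averaged over lines, and moderated F tests compared the lines in their R406 effect and in DMSO. Each test was adjusted by Benjamini-Hochberg across all genes. The model was checked on simulated data with known changes. No 2 arrays held identical values. Alternatives were median centring, repeated quantile normalization, averaged probe sets, removal of the dimmest 33.3% of genes, a pseudocount of 16, a trended and robust prior, only the 6 arrays of a line, a replicate block, and each array left out in turn.

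The members and the gene lists were chosen with earlier results of these data known. Of the wider list, the rule names the 3 highest and 3 lowest called genes in each line, and the 4 with the smallest p for the difference between lines. The 5 non-members with the highest r are named as most alike. Promoter sequences are from RefSeq, GRCh38.p14.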

Additional observations from a re-analysis of the deposited data

Results flagged for a closer look

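The R406 effect on 7 of the 9 core autophagy genes differed between the 4 lines by limma's F test. The adjusted p of that difference was 4.93e-11 for SQSTM1, 8.66e-09 for MAP1LC3B, 1.67e-07 for GABARAPL1, 4.33e-07 for GABARAPL2, 1.52e-06 for ULK1, 0.00034 for ATG5 and 0.0133 for ATG12. The range of the effect over the lines was 1.76 for SQSTM1, 1.60 for GABARAPL1, 1.37 for MAP1LC3B, 1.21 for ULK1, 0.85 for GABARAPL2, 0.55 for ATG5 and 0.51 for ATG12 on the log2 scale. MOLM-14 had the largest rise for SQSTM1, GABARAPL1, MAP1LC3B, ULK1 and GABARAPL2. For ATG5 the effect was -0.46 in KG-1 and 0.09 in U937, and for ATG12 it was 0.46 in KG-1 and -0.04 in HL-60.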

How the results depend on the processing

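MOLM-14 and KG-1 counts of core autophagy genes that rose held within 1.5 times the reported 8 and 7 under each alternative run. The single MOLM-14 gene that fell, ATG5, gave a count of 0 with repeated quantile normalization, averaged probe sets, the replicate block or only the 6 arrays of the line, and 0 to 1 with each array left out. In U937, 2 genes rose with the dimmest 33.3% of genes left out, averaged probe sets, a pseudocount of 16, the trended and robust prior or only the 6 arrays of the line, and 0 to 2 with each array left out. In the wider list, 3 genes fell in MOLM-14 with averaged probe sets. With each array left out, 7 to 13 of its genes rose and 1 to 4 fell in U937, and 3 to 5 fell in HL-60. The causes were not tested, apart from those in the choice itself (fewer arrays, or other probe sets). With averaged probe sets the DMSO difference of MOLM-14 minus KG-1 turned to 0.10 for SQSTM1, and that of U937 minus HL-60 to 0.43 for ATG12. With averaged probe sets, DMSO calls were gained for BECN1 in U937 minus KG-1 (0.30) and ATG5 in HL-60 minus KG-1 (0.18). They were lost for SQSTM1 in MOLM-14 minus U937 (-0.15) and ATG12 in HL-60 minus KG-1 (0.13). Other calls that changed included ULK1 in KG-1 and SQSTM1 in U937, gained with the dimmest genes left out. GABARAPL1 in HL-60 and MAP1LC3B in U937 gained a call with averaged probe sets, and BECN1 in KG-1 lost its call with median centring (0.22). WIPI1 in HL-60 and BECN1 in MOLM-14 lost their calls with only the 6 arrays of the line. The WIPI1 difference between lines was called with averaged probe sets (adjusted p = 0.00731, limma). Median centring moved the share of U937 calls that were higher to 40.8%, against 52.9%, and that of KG-1 calls to 44.6%, against 53%.

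The 3 replicate numbers are shared by the groups, but of 12 pairs of same-numbered arrays none had a correlation of deviations over 0.1 (-0.084 to 0.071), and 4 matched their own number best, so the numbers were not taken as pairs. With the replicate block, ULK1 in KG-1 gained its call (adjusted p = 0.0328, limma), and BECN1 in KG-1 (0.0515), ATG5 in MOLM-14 (0.0526) and the ATG12 difference between lines (0.0524) lost theirs.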

Other observations

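Of the 16 measured regulators of autophagy on the wider list, 11 rose and 2 fell in MOLM-14, where 31.1% and 25% of all genes were called higher and lower. In KG-1, 9 rose and 3 fell (23.5% and 20.9% of all genes). In HL-60, 2 rose and 1 fell, or 12.5% and 6.25%, near the 7.2% and 7.98% of all genes, and in U937 3 rose and 3 fell (6.1% and 5.43% of all genes). Both of the mTOR inhibitors named by the rule moved in different directions in different lines. DEPTOR, which binds mTOR, averaged 153.9 ± 9.02 in R406 and 35.37 ± 5.14 in DMSO in MOLM-14 (2.10 ± 0.12, SD and n = 3 for the means). DEPTOR also rose in KG-1 (1.198 ± 0.117), and fell in HL-60 (-1.28 ± 0.12) and U937 (-0.39 ± 0.12). DDIT4, also called REDD1 and an inhibitor of mTOR complex 1, averaged 263.2 ± 19.2 in R406 and 110.6 ± 7.77 in DMSO in KG-1 (1.24 ± 0.076). DDIT4 also rose in HL-60 (0.46 ± 0.076), and fell in MOLM-14 (-1.11 ± 0.076) and U937 (-0.64 ± 0.076). The difference between the lines was called for DEPTOR (adjusted p = 4.95e-13, limma F test) and for DDIT4 (adjusted p = 1.62e-13, limma F test).

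TFEB, TFE3 and MITF, related transcription factors of lysosomal genes, were set side by side after their values were seen, apart from TFE3 in HL-60. TFE3 rose in all 4 lines, by 1.65 ± 0.086 in MOLM-14, 0.67 ± 0.086 in KG-1, 0.49 ± 0.086 in HL-60 and 0.34 ± 0.086 in U937. TFEB averaged 230.3 in R406 and 96.28 in DMSO in MOLM-14, a rise of 1.25 ± 0.10, and was not called in KG-1 (-0.06 ± 0.10), HL-60 (0.08 ± 0.10) or U937 (0.07 ± 0.10). MITF rose in MOLM-14, by 0.76 ± 0.12, and was not called in the other lines. Both were dim in KG-1, where the lack of a call says little. TFEB averaged 12.91 in R406 and 13.57 in DMSO there, and MITF 20.07 in R406 and 19.29 in DMSO. The lowest array median was 19.14. PLEKHM1, an adaptor between autophagosomes and lysosomes that was also picked after its values were seen, rose in all 4 lines, by 0.97 ± 0.073 in MOLM-14, 0.45 ± 0.073 in KG-1, 0.33 ± 0.073 in HL-60 and 0.28 ± 0.073 in U937.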
